A study of Homo sapiens with 9 samples.

Results

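The genes described here make cholesterol and fatty acids or set the pace at which the cell makes them. They are 30 rows of a deposited table of 60448, found by matching Ensembl identifiers to the symbols of the enzymes, their regulators and a sterol carrier. The table holds read counts from RNA sequencing of Huh7, a cell line from a human hepatocellular carcinoma grown in DMEM. It has 3 control libraries and 3 libraries each of the OPA1 knock-down sets N_28 and N_30. OPA1 is a GTPase of the inner mitochondrial membrane. The labels state lentiviral OPA1 knock-down as the treatment of all 9 libraries, controls included, and say neither what virus the controls received nor what N_28 and N_30 stand for. They do not say that libraries of 1 group are separate cultures, and a p-value here measures a spread that may be technical. In bulk RNA, fewer cells with a transcript and less of it per cell cannot be told apart. The 30 genes are not every gene of the pathways.

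Cholesterol synthesis starts from acetyl-CoA, runs through mevalonate and isoprenoid units to squalene, and closes squalene into rings that are trimmed to cholesterol. Fatty acid synthesis draws on the same cytosolic acetyl-CoA, which ATP citrate lyase (ACLY) cuts from citrate exported by mitochondria. The transcription factors SREBF2 and SREBF1 switch on the sterol and the fatty acid genes respectively, with overlap. SCAP escorts these factors to the Golgi for cleavage when sterols are low, and INSIG1 and INSIG2 hold SCAP back when sterols are high. The liver is a main site of both pathways.

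Total counts ran from 16476389 to 22863328 per library, and a count of 3 equals at most 0.181 CPM (reads of a gene relative to all reads of its library, the unit of all levels below), a floor that covers counting error only. The members lay far above it, with 125 counts in the library where a member was lowest (INSIG2) and 49976 in the library where one was highest (FASN). OPA1 stood at 82.8 to 92.9 CPM in control, 53.3 to 57.8 CPM in N_28 and 63.3 to 65.9 CPM in N_30 libraries, so the groups did not overlap. Of 7 hepatocyte markers, 2 (FGB and TF) averaged 1 CPM or more over the libraries, and albumin (ALB) was at most 0.602 CPM in any library. In control, AFP averaged 0.725 CPM, ALB 0.0788, APOA1 0.0483, AHSG 0.0483 and HNF4A 0.0312 CPM. Most of these markers were thus nearly absent, although the labels name a liver cancer line. Their summed level was 9.40 to 12.1 CPM in control, 5.88 to 7.60 CPM in N_28 and 11.2 to 15.4 CPM in N_30 libraries, and of these genes TF (transferrin) had 3.32 to 5.38 CPM in control and 0.220 to 0.830 CPM in N_28. Of 4 epithelial markers 3 averaged 1 CPM or more, with sums of 469 to 543, 386 to 430 and 570 to 602 CPM in control, N_28 and N_30. All 4 mesenchymal markers did, with sums of 1670 to 1750, 1510 to 1580 and 1720 to 1750 CPM. Of 3 endothelial markers 1 did, with sums of 1.12 to 1.52, 2.03 to 2.65 and 1.25 to 1.86 CPM and KDR at 0, and of 4 leukocyte markers none did, with CD3E and LYZ at 0. The part of these markers in the results was not tested.

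Promoters of the regulator SREBF2 and of 3 fatty acid genes are shown because SREBF2 is the master factor of the sterol genes and the 3 genes are members whose levels differed between groups. Each stretch is the 150 bases before the outermost RefSeq start at hand on GRCh38.p14, 5′ to 3′ on the gene's strand. For ACLY, ELOVL6 and ACSS2 it lies inside the annotated gene span given below, downstream of the start of that span. Capitals mark the sterol regulatory element (TCACNCCAC), the CCAAT box (CCAAT or its reverse ATTGG) and the GC box (GGGCGG or its reverse CCGCCC), searched on both strands.
SREBF2: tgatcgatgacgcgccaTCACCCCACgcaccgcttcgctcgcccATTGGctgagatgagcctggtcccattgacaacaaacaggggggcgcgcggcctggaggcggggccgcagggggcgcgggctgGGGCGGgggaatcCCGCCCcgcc
ACLY: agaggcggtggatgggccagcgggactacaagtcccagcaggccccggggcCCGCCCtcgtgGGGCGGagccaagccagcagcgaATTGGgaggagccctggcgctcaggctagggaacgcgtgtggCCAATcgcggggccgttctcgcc
ELOVL6: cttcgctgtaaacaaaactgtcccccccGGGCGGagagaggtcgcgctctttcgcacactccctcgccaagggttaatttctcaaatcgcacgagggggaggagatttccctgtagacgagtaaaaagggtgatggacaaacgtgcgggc
ACSS2: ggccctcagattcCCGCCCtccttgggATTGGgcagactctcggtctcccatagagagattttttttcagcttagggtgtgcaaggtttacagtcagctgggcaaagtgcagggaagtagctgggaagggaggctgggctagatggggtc

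These stretches lie at chr22:41832955-41833104 on the plus strand (SREBF2), chr17:41919023-41919172 on the minus strand (ACLY), chr4:110198616-110198765 on the minus strand (ELOVL6) and chr20:34874839-34874988 on the plus strand (ACSS2). SREBF2 held 1 sterol regulatory element, 1 CCAAT box and 2 GC boxes in its 150 bases. ACLY held 2 CCAAT boxes and 2 GC boxes, ACSS2 1 of each, and ELOVL6 1 GC box. Windows of 300 bases (250 before to 50 after a start) were at hand for 26 of the 30 members, not for ACAT2, FASN, FDFT1 and SQLE. In these windows the sterol regulatory element stood in 1 of 26 members (3.85%), which was SREBF2, and in 1.38% of 11008 tested genes with a window. CCAAT boxes stood in 20 of 26 members (76.9%) and 42.7% of tested genes, and GC boxes in 25 (96.2%) and 76.5%. The E-box CACGTG stood in 4 of 26 members (15.4%) and 12.3% of tested genes. A match is a description of these letters, and a missing match says only that they are not in this window.

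The fatty acid enzymes SCD, FASN and ACLY held the highest levels among the members, and ACACA, ACSS2 and ELOVL6 lay among the sterol enzymes. Levels between genes are compared per kilobase of annotated exon, which understates a gene whose longest exons are not used. In control libraries the desaturase SCD stood at 260.9 CPM per kilobase, fatty acid synthase (FASN) at 221 and ACLY at 151. These lay above 99.4, 99.2 and 98.7% of 14918 tested genes with a known exon length. DHCR7, which makes the final step to cholesterol, was the highest sterol enzyme at 51.1 CPM per kilobase, followed by phosphomevalonate kinase (PMVK) at 47.8 and squalene epoxidase (SQLE) at 36.8. Of the regulators, SREBF1 stood at 32.4, SREBF2 at 21.2, SCAP at 19.3 and INSIG1 at 12.2 CPM per kilobase. INSIG2 was the lowest member at 1.97 CPM per kilobase, above 35.6% of tested genes. The lanosterol demethylase CYP51A1 was listed at 2.26 CPM per kilobase, and 2844 of its 3584 exon bases are shared with a second gene on the same strand (AC000120.2), so its level is uncertain.

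**Figure D1:**
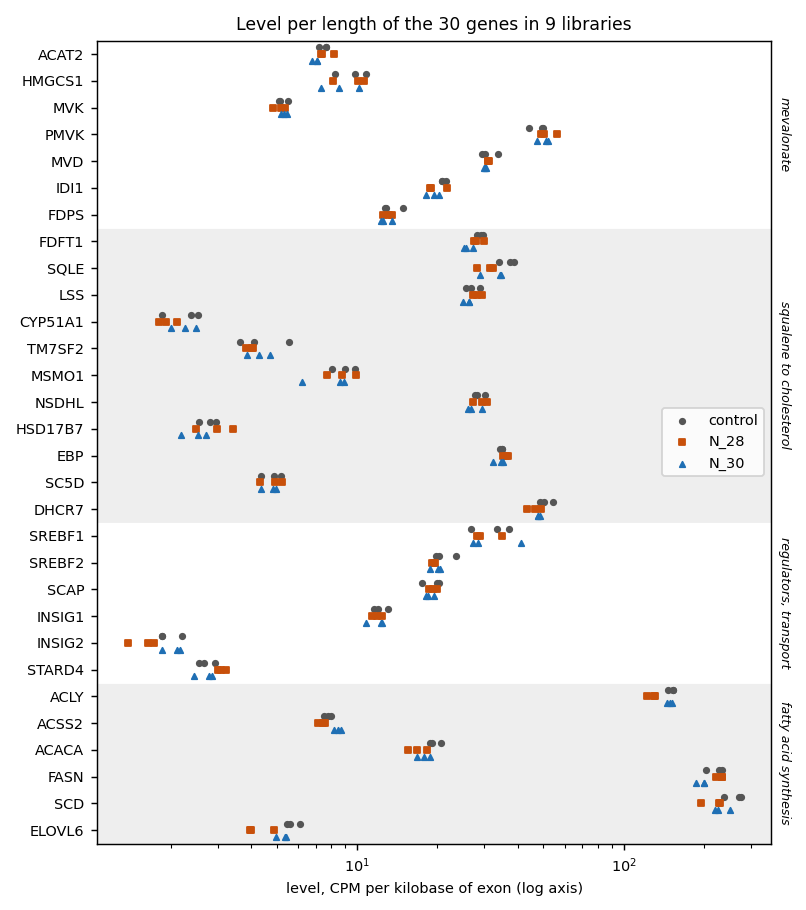
Level of each of the 30 genes in CPM per kilobase of exon (log axis), with 3 points per group: control, N_28 and N_30. SCD, FASN and ACLY lie far right of the others. The groups are drawn at slightly different heights, and for most genes their points lie close together along the axis.

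Against control, 2 of the 30 members fell in N_28 and 0 rose, both of them fatty acid genes (ACLY and ELOVL6). This is 6.67% of the members where 10.2% of all 15019 tested genes were called (4.49% higher and 5.75% lower). DESeq2 called 13.3% of members and 10.7% of all genes, and the replicate block 16.7 and 15.3%. Without a filter on low counts edgeR called 16.7 and 6.57%, the latter over 29921 genes that include those with very few reads. With only the 10679 genes that averaged 5 CPM or more the shares were 6.67 and 13.3%. The order of the shares thus depended on the setting and on which genes were counted. Tests here are quasi-likelihood tests in edgeR, adjusted over all tested genes by Benjamini-Hochberg, and a call is an adjusted p under 0.05. The median log2 fold change was -0.03 over the members and -0.0015 over all genes tested. Of the members, 21 lay below 0 (70.0%) against 50.3% of all genes. Without control library 1 that count was 16 of 30, and with 1 library left out the median ran from -0.0689 (without N_28 library 2) to -0.0028 (without N_28 library 3). Libraries did not overlap for 7 members that were lower and 2 that were higher, or 23.3 and 6.67% of the members against 14.6 and 14.2% of all genes (28.7% in either direction).

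In N_30, 0 of the 30 members passed against control, where 0.866% of all genes were called (0.459% higher and 0.406% lower). At an unadjusted p under 0.05 there were 4 members (13.3%), near the 11.4% of all genes, and DESeq2 called 0 as well. The replicate number as a block, which the libraries of control and N_30 share, also gave 0 members, while it raised the calls over all genes from 130 to 424. The members leaned to lower values, with 26 of 30 below 0 (86.7%) against 50.2% of all genes and a median of -0.06 against -7e-04. Without control library 1 that count was 20 of 30 and the median -0.04. Libraries did not overlap for 6 members that were lower and 1 that was higher, or 20% and 3.33% of the members against 7.64 and 7.53% of all genes (15.2% in either direction). All 30 intervals of 95% lay within 0.5 on the log2 scale on either side, so a change of 0.5 or more was outside the interval of each member.

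Between the knock-downs, 3 members were higher in N_30 than in N_28 and 1 was lower, which is 13.3% of members where 18.3% of all genes were called (9.38% higher and 8.96% lower). All 4 belong to fatty acid synthesis: ACLY, ELOVL6 and ACSS2 were higher and FASN was lower. Their changes were 0.19 to 0.30 on the log2 scale for the 3 higher and -0.23 for FASN. Libraries did not overlap for 10 of the 30 members, 4 higher and 6 lower in N_30, against 36.4% of all genes (18.4 and 18.1%). None of the 4 called members kept its call without the libraries numbered 3, when 0 members and 2013 genes in all were called by the same edgeR test, against 2755 genes with all libraries. Both comparisons against control share the same 3 control libraries, so N_28 and N_30 values stand side by side below without a measure of their likeness.

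**Figure D2:**
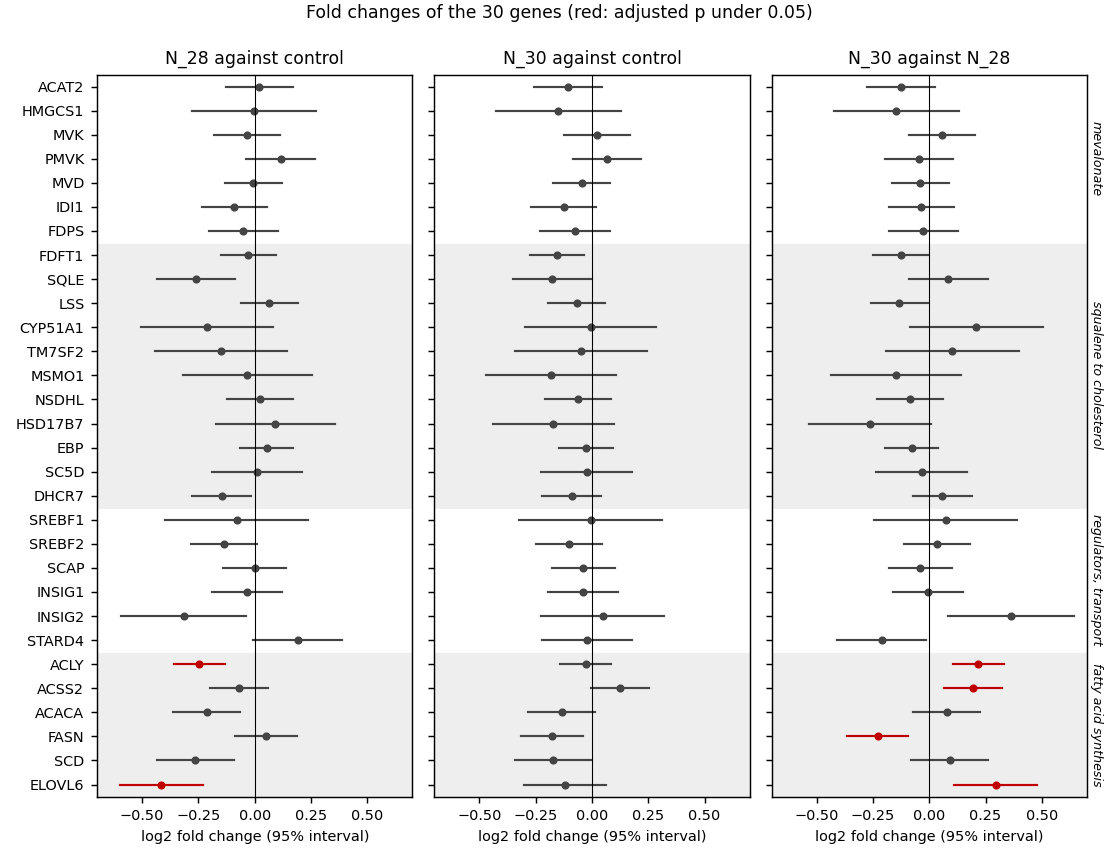
Log2 fold change of each gene with its 95% interval in the 3 comparisons, red where the adjusted p was under 0.05. ACLY and ELOVL6 are red on the lower side in N_28, no gene is red in N_30 against control, and 4 fatty acid genes are red between the knock-downs.

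None of the 7 genes from acetoacetyl-CoA to farnesyl diphosphate passed the test. Over the 3 comparisons 0 had an unadjusted p under 0.05, where 11.4 to 31.1% of all genes did. By edgeR 0 of 7 were called in each comparison, and DESeq2 called 0. Of all genes, edgeR called 0.866 to 18.3% and DESeq2 1.78 to 17.7% over the comparisons. Their summed level was 453 to 474 CPM in control, 442 to 473 CPM in N_28 and 439 to 450.1 CPM in N_30 libraries. HMG-CoA synthase (HMGCS1), which builds the precursor of mevalonate, was at 46.1, 50.6 and 38.9 CPM in control libraries 1, 2 and 3. It was at 47.2, 50.1 and 38.1 CPM in N_28 and 47.9, 40.3 and 34.4 CPM in N_30. The third library was the lowest of each group, and the groups overlapped, with intervals of -0.28 to 0.27 in N_28 and -0.43 to 0.13 in N_30.

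Isopentenyl diphosphate isomerase (IDI1), which interconverts the 2 isoprenoid units, was at 90.4, 93.7 and 90.4 CPM in control and at 88.4, 79.1 and 84.3 CPM in N_30. All N_30 libraries were below all control libraries, with a log2 fold change of -0.13 that did not pass (adjusted p = 0.508, edgeR). The thiolase ACAT2, which joins acetyl units, was lower in the same way, at -0.11, and 1141 of its 4299 exon bases are shared with SOD2 on the opposite strand, so its reads are uncertain. Mevalonate kinase (MVK) lay between -0.03 and 0.06 in the 3 comparisons and PMVK between -0.05 and 0.11. The decarboxylase MVD was at 147 ± 11.02 CPM in control, 147 ± 1.23 CPM in N_28 and 143 ± 1.37 CPM in N_30 (SD, n = 3 each). Farnesyl diphosphate synthase (FDPS), which has 8 named pseudogenes that could take its reads, was at -0.05 in N_28 and -0.08 in N_30.

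Of the 11 enzymes from squalene to cholesterol, 0 passed by edgeR in any comparison, and SQLE came nearest to the threshold. At an unadjusted p under 0.05 there were 2 in each comparison. Over all genes the shares at that p were 23.9% in N_28, 11.4% in N_30 and 31.1% between the knock-downs. Of the 11, DESeq2 called 1 in N_28, which was SQLE, and 0 in the others. It called 10.7% of all genes in N_28, 1.78% in N_30 and 17.7% between the knock-downs. All 11 lay below 0 in N_30, with a median of -0.07 and values from -0.18 (MSMO1) to -0.01 (CYP51A1), while 6 of 11 lay below 0 in N_28. Over the 18 enzymes of both stretches, 16 lay below 0 in N_30, and 13 did without control library 1.

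SQLE, the oxygen-dependent enzyme that commits squalene to sterols, was at 161, 168 and 147 CPM in control libraries 1, 2 and 3. In N_28 it was at 136, 139.7 and 121 CPM, so each N_28 library lay below each control library. In N_30 it was at 148, 149 and 124 CPM and overlapped control. By edgeR, SQLE lay at -0.26 in N_28 (SE 0.08, adjusted p = 0.0571). The N_30 value was -0.18 (SE 0.08, adjusted p = 0.434). The former passed under 7 of 16 alternatives, with an adjusted p from 0.00186 to 0.195 over them.

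Squalene synthase (FDFT1), which joins farnesyl units, was at 147, 154 and 151 CPM in control and 134, 141 and 131 CPM in N_30. Its libraries did not overlap, and the log2 fold change of -0.16 did not pass (adjusted p = 0.285, edgeR). DHCR7 was at 226, 203 and 209.5 CPM in control, and at 201, 199 and 199 CPM in N_30, which again did not overlap (-0.09, adjusted p = 0.636, edgeR). In N_28 it was at 179.9, 193 and 203 CPM, with a log2 fold change of -0.15. The cyclase LSS, which makes lanosterol, was at 196 ± 11.9 CPM in control, 205 ± 7.22 CPM in N_28 and 187 ± 5.67 CPM in N_30 (SD, n = 3 each). The isomerase EBP was higher in every N_28 library than in every control library, at 0.05, which is 3.68% and did not pass.

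The C4 demethylation enzymes MSMO1, NSDHL and HSD17B7 lay at -0.03, 0.02 and 0.09 in N_28 and at -0.18, -0.06 and -0.17 in N_30. HSD17B7 was the member with the lowest value between the knock-downs, at -0.26, and it did not pass (adjusted p = 0.171, edgeR). It has 2 named pseudogenes. The desaturase SC5D lay at 0.01 and -0.02, and the sterol reductase TM7SF2 at -0.15 and -0.05. TM7SF2 was one of the least even members, at 18.9, 13.95 and 12.4 CPM in control libraries, so its interval reached from -0.44 to 0.14 in N_28. CYP51A1 lay at -0.21 (-0.51 to 0.08) in N_28 and at -0.01 (-0.30 to 0.28) in N_30.

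Of the 6 regulators and sterol carriers, 0 passed by edgeR or DESeq2 in any comparison. Of all genes, edgeR called 0.866 to 18.3% and DESeq2 1.78 to 17.7% over the comparisons. There were 1, 0 and 2 at an unadjusted p under 0.05 in N_28, N_30 and between the knock-downs. Over all genes the shares at that p were 23.9, 11.4 and 31.1%. SREBF2 was at 178, 154 and 149.9 CPM in control, 146, 148 and 144 CPM in N_28 and 155, 152 and 141 CPM in N_30. All N_28 libraries lay below all controls, at -0.14 (adjusted p = 0.242, edgeR), and the genes of chromosome 22, where SREBF2 lies, had a median of -0.12 in the same comparison, whose part in this value was not tested. SREBF1 was the least even regulator, at 298, 215 and 269 CPM in control, 227, 232 and 281 CPM in N_28 and 218, 229 and 331 CPM in N_30. Its groups overlapped fully, and its intervals were -0.40 to 0.24 in N_28 and -0.32 to 0.31 in N_30. SCAP stood at 124 ± 9.75 CPM in control, 124 ± 4.26 CPM in N_28 and 121 ± 4.44 CPM in N_30 (SD, n = 3 each).

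The 2 INSIG genes differed in level and in how they lay between groups. INSIG1, a target of SREBF2 as well as its brake, was at 44.5 ± 2.70 CPM in control, 43.4 ± 1.79 CPM in N_28 and 43.3 ± 3.34 CPM in N_30 (SD, n = 3 each). INSIG2, which is the less sterol-dependent of the pair, was at 8.71, 7.31 and 7.35 CPM in control, 6.50, 6.87 and 5.46 CPM in N_28 and 8.55, 8.35 and 7.30 CPM in N_30. Its N_28 libraries lay below those of both other groups. Neither its N_28 value of -0.32 (SE 0.13, adjusted p = 0.148) nor its difference of 0.36 between the knock-downs (SE 0.13, adjusted p = 0.0673) passed by edgeR. The replicate number as a block brought the latter to adjusted p = 0.0318. The cholesterol carrier STARD4 lay the other way, at 14.6, 15.2 and 16.7 CPM in control and 17.1, 18.4 and 17.6 CPM in N_28. All its N_28 libraries were above all controls, at 0.19 (adjusted p = 0.225, edgeR).

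All members called by edgeR with all 9 libraries, the filter on low counts and no block were among the 6 fatty acid synthesis genes. Without that filter the sterol enzyme SQLE was called in N_28 as well. In N_28, 2 of 6 fell (ACLY and ELOVL6), with a median of -0.23 and 5 of 6 below 0. At an unadjusted p under 0.05 there were 4, where 23.9% of all genes were. DESeq2 called 3 of the 6 and 10.7% of all genes. In 4 the N_28 libraries lay below all controls, as in 14.6% of all genes, and 5.75% of all genes were called lower. In N_30 there were 2 at an unadjusted p under 0.05, where 11.4% of all genes were. The 6 genes had a median of -0.13 there, and 0 of 6 passed by edgeR or DESeq2. Their summed level was 4280.4 to 4775 CPM in control, 4020.3 to 4420.3 CPM in N_28 and 4000.5 to 4326 CPM in N_30 libraries. FASN and SCD make up most of it.

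ACLY (ENSG00000131473, chromosome 17, 41866908 to 41930542, minus strand), the source of cytosolic acetyl-CoA for both pathways, was at 799.9, 767 and 801 CPM in control libraries 1, 2 and 3. It was at 639, 681 and 677 CPM in N_28 and at 757, 775 and 791 CPM in N_30. The 3 N_28 libraries were below all other libraries, and N_30 overlapped control. ACLY fell by 15.7% in N_28, a log2 fold change of -0.25 (SE 0.05, adjusted p = 0.00812, edgeR). In N_30 it lay at -0.03, with an interval of -0.14 to 0.09. Its level in N_30 exceeded that in N_28 by 0.22 (SE 0.05, adjusted p = 0.0107, edgeR). Without N_28 library 1 both calls were lost. The first then had adjusted p = 0.0591 by edgeR, and the second reached adjusted p = 0.0664 at most over its 16 alternatives. Genes of chromosome 17 had a median of 0.03 in N_28, and their part in the ACLY value was not tested.

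ELOVL6 (ENSG00000170522, chromosome 4, 110045846 to 110199199, minus strand) extends the palmitate that FASN makes to stearate. It was at 39.9, 44.4 and 40.9 CPM in control libraries, 29.04, 35.8 and 29.2 CPM in N_28 and 36.4, 39.6 and 39.1 CPM in N_30. Each N_28 library lay below each library of the other groups, and N_28 library 2 was the nearest to them. ELOVL6 fell by 25% in N_28, a log2 fold change of -0.41 (SE 0.09, adjusted p = 0.00658, edgeR), the lowest value of any member in the 3 comparisons. This call held under all 16 alternatives, with an adjusted p from 6.31e-05 to 0.0416. In N_30 all libraries were also below all controls, at -0.12, and this did not pass (adjusted p = 0.661, edgeR). N_30 was above N_28 by 0.30 (SE 0.09, adjusted p = 0.0290, edgeR), and 5 alternatives lost that call, with an adjusted p of up to 0.181.

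FASN (ENSG00000169710, chromosome 17, 82078333 to 82098332, minus strand), the enzyme that assembles palmitate, differed between the knock-downs in the other direction. It was at 2181, 1902 and 2139 CPM in control, 2071, 2189 and 2182 CPM in N_28 and 1752, 1877 and 1868 CPM in N_30. All N_30 libraries lay below all others, and control library 2 was closest to them. FASN was lower in N_30 than in N_28 by a log2 fold change of -0.23 (SE 0.06, adjusted p = 0.0230, edgeR). Against control it lay at -0.18 in N_30 (adjusted p = 0.273) and at 0.05 in N_28 (adjusted p = 0.698), and neither passed by edgeR. The call between the knock-downs was lost without N_28 library 2, N_28 library 3, N_30 library 1 or the libraries numbered 3, with an adjusted p of up to 0.0881.

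The acetyl-CoA synthetase ACSS2 (ENSG00000131069, chromosome 20, 34872146 to 34927962, plus strand), which makes cytosolic acetyl-CoA from acetate, was at 41.8, 40.4 and 42.9 CPM in control. It was at 38.5, 40.7 and 40.1 CPM in N_28 and at 45.5, 44.1 and 46.9 CPM in N_30. N_30 libraries were above all others, while N_28 overlapped control. ACSS2 was higher in N_30 than in N_28 by 0.19 (SE 0.06, adjusted p = 0.0362, edgeR), and it lay at 0.13 against control (adjusted p = 0.450, edgeR). The genes of chromosome 20 had a median of 0.11 between the knock-downs, and their part in the ACSS2 value was not tested. The call was lost under 9 of 16 alternatives, among them DESeq2 and leaving out any 1 of the 6 knock-down libraries.

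SCD, which puts the double bond into stearate, was at 1469.7, 1278 and 1449 CPM in control, 1041, 1236 and 1218 CPM in N_28 and 1178, 1207 and 1337 CPM in N_30. All N_28 libraries were below all controls and N_30 overlapped them. By edgeR, SCD lay at -0.26 in N_28 (SE 0.08, adjusted p = 0.0508), just outside the threshold. In N_30 it lay at -0.17 (SE 0.08, adjusted p = 0.434). Acetyl-CoA carboxylase (ACACA), which makes the malonyl units, was at 243, 249 and 269.7 CPM in control, 202, 237 and 218 CPM in N_28 and 231, 219 and 244 CPM in N_30. Its N_28 libraries lay below all controls too, at -0.21 (adjusted p = 0.0683, edgeR). SCD passed in N_28 under 6 of 16 alternatives and ACACA under 3.

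**Figure D3:**
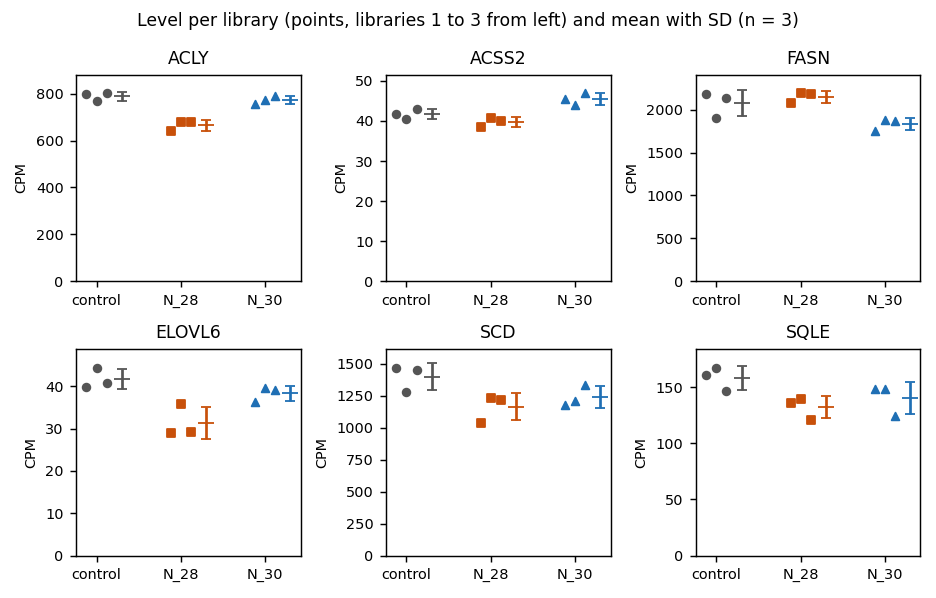
CPM of 6 genes in each library (points, libraries 1 to 3 of a group from left to right) with the group mean and SD (n = 3), axes from 0. ACLY, ELOVL6, SCD and SQLE are lower in all N_28 libraries than in all controls, FASN is lowest in N_30, and ACSS2 is highest in N_30.

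Some of the sterol genes also varied within groups, along the number that the library carries. In 7 of the 30 members (23.3%) library 3 was the lowest of its group in control, N_28 and N_30 alike, which held for 9.27% of all genes tested. These are HMGCS1, SQLE, CYP51A1, MSMO1, HSD17B7, INSIG1 and SREBF2, which were picked out after their values were seen. Of the 18 sterol enzymes, 5 (27.8%) are among them. Library 3 was the highest of every group in 0 of 30 members and in 8.62% of all genes. MSMO1 was at 26.2, 28.5 and 23.2 CPM in control libraries 1, 2 and 3, at 25.4, 28.6 and 22.2 CPM in N_28 and at 25.9, 25.005 and 17.9 CPM in N_30. SREBF1 was instead highest in library 3 of N_28 and N_30, and in library 1 of control. The labels do not say what the number marks. Over the 30 members the median coefficient of variation in control was 6.91%, against 6.69% over 10681 tested genes that averaged 5 CPM or more.

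**Figure D4:**
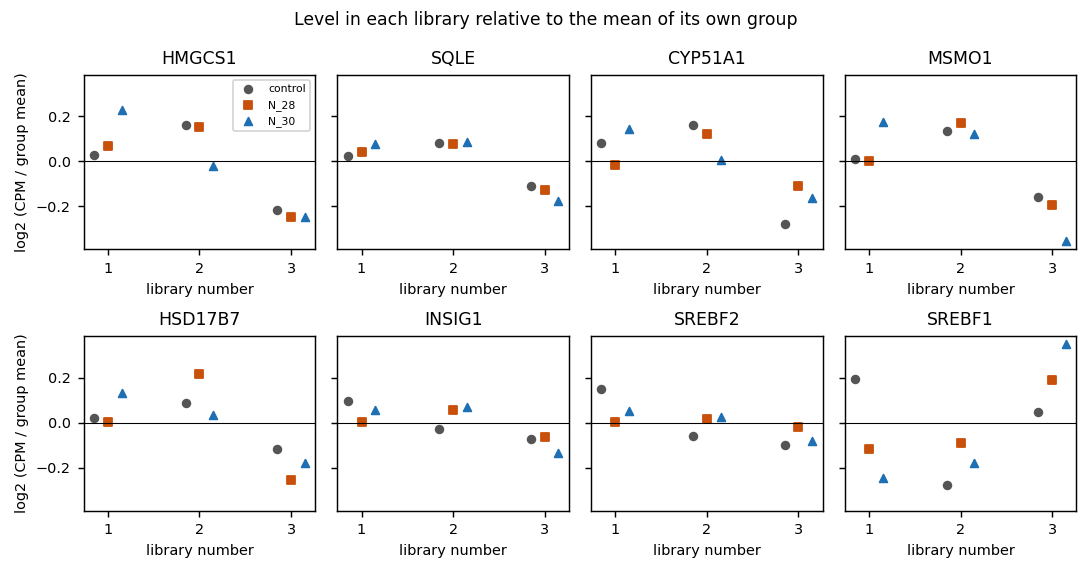
Level in each library as log2 of its CPM over the mean of its own group, by library number, for 8 genes. In the first 7 panels library 3 lies lowest in all 3 groups, and in SREBF1 it lies highest in N_28 and N_30.

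Other genes around the pathway were called in N_28 about as often as any gene. Of 84 tested genes from 6 lists, 4 rose and 5 fell in N_28, or 10.7% where 10.2% of all genes were called. In N_30 0 of 84 passed by edgeR, with 10 at an unadjusted p under 0.05, 2 called by DESeq2 and 4 under the replicate block. Shares over all genes there were 11.4% at the unadjusted p, 1.78% by DESeq2 and 2.82% under the block. Between the knock-downs 10 were higher and 11 lower in N_30, or 25% against 18.3% of all genes.

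The genes called are spread over all 6 lists. The mitochondrial citrate exporter SLC25A1, which supplies ACLY, fell by 0.30 in N_28 on the log2 scale (adjusted p = 0.00658, edgeR), the 1 of 9 genes of citrate and NADPH supply that passed. It lies on chromosome 22, whose genes had a median of -0.12 in N_28, and their part in the SLC25A1 value was not tested. Among the sterol pathway partners, the haem-binding protein PGRMC1 fell (-0.24). Of 19 genes of cholesterol uptake, transport, storage and efflux, the lipoprotein receptor LRP8 (0.31) and the sterol hydroxylase CYP27A1 (0.34) rose. The sterol transporter GRAMD1A (-0.33) fell. Of 14 genes of SREBP processing and degradation, the ubiquitin ligase subunit FBXW7 (0.27) rose. Of 21 genes of elongation, desaturation and activation, the acyl-CoA synthetase ACSL5 rose by 1.35, with a control mean of only 0.911 CPM. Of 11 glycerolipid genes, PCYT1A (-0.28), which makes the activated choline of phosphatidylcholine, fell. Adjusted p-values of the 7 genes named after SLC25A1 were at most 0.0356 (FBXW7) by edgeR. In N_30 these 8 genes lay between -0.31 (ACSL5) and 0.09 (LRP8).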

How the data were processed

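Raw read counts per human Ensembl gene were deposited by the authors in 1 table of 9 libraries, per the file headers, with no normalization stated. The sources used here name no aligner, counter, annotation release or use of strand. The mouse build mm8 stands in the submitters' processing notes, although identifiers in the table are human. Without strand, reads of overlapping genes cannot be told apart. Of 60448 rows, 56434 took a symbol from a table of gene names and 434 from GENCODE 29, the source of coordinates and exon lengths on GRCh38.

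Counts passed edgeR's expression filter (minimum count 10), were scaled by TMM, and entered a quasi-likelihood fit of all 9 libraries with a term per group (edgeR 4.0.16 under R 4.3.3). This left 15019 genes, all 30 members among them. Values of N_28 and N_30 are against control unless stated. SE was derived from fold change and F statistic. Alternatives were DESeq2 1.42.0, other scaling, other filters, only the groups compared, a replicate block and leaving out libraries. The fit was tested on simulated data. Control and N_30 libraries of the same number deviated together (correlations of 0.122, 0.169 and 0.306). Those of different numbers ran from -0.253 to 0.103. The main fit held no block. Only the replicate block read numbers as pairs, on the evidence of the data alone. Same-numbered pairs with N_28 ran from -0.0588 to 0.235 and those of different numbers from -0.192 to 0.166. These ranges overlapped, so a block has less ground in the comparisons with N_28. Libraries within a group differed by a chi-square per gene of 3.64 to 12.7, so none was treated as a copy.

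Members, lists and tests were chosen with earlier results of these data known. All 30 members are named, and of 6 further lists (91 genes, 84 tested) the genes called against control, except 1 that is not reported here. Chromosome medians cover tested genes that averaged 5 CPM or more.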

Additional observations from a re-analysis of the deposited data

Results flagged for a closer look

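The level differed between N_28 and N_30 for 4 of the 30 members, by edgeR's test of N_30 against N_28 at an adjusted p under 0.05. This is 13.3% of members, where 18.3% of all genes tested were called. On the log2 scale ACLY exceeded its N_28 level in N_30 by 0.2181, ELOVL6 by 0.2955 and ACSS2 by 0.1946, while FASN had a value of -0.2289. For each of the 4, the libraries of N_28 and N_30 did not overlap, as in 36.4% of all genes tested, called or not. The 4 were called on these same libraries, so the lack of overlap adds nothing to the calls. Each of the 4 lost its call without the libraries numbered 3.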

How the results depend on the processing

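No member value that was called changed sign under any of the 16 alternatives. In N_28 against control, 2 members were called, against 4 by DESeq2 and 4 with only the groups compared (ACLY, ELOVL6, SCD and SQLE in both). These are 6.67, 13.3 and 13.3% of members, where 10.2, 10.7 and 10.5% of all genes were called. With no filter on low counts there were 5, and the replicate block gave 5, in both cases with ACACA added. Each is 16.7% of members, where 6.57 and 15.3% of all genes were called, the former over 29921 genes that include those with very few reads. Leaving out 1 library at a time gave 1 (without N_28 library 1) to 4 members (without N_30 library 3) and 967 to 1712 of all genes, against 1538. Shares were then 3.33 to 13.3% of members and 6.35 to 11.2% of all genes. In N_30 against control, 0 members were called under any alternative. All genes called there numbered 130, and 267 by DESeq2, 424 under the replicate block and 523 when low counts stayed in, and 58 (without N_30 library 2) to 180 (without N_30 library 3) with 1 library left out. They were 71 without N_30 library 1 and 78 without control library 3. Between the knock-downs, 4 members were called, and 1 (without N_28 library 1 or 3) to 4 (without any 1 control library) with 1 library left out. Without each N_30 library, or N_28 library 2, there were 2. Shares were 13.3% of members against 18.3% of all genes, and 3.33 to 13.3% against 12.1 to 19.1% with 1 library left out. Without the libraries numbered 3, an alternative chosen after seeing the data, 0 members and 13.4% of all genes were called. The replicate block gave 5 members between the knock-downs, with INSIG2 added, or 16.7% against 24.5% of all genes. Fits without 1 library hold fewer samples; for the other changes of count the cause was not tested. With 3 libraries a group, the member intervals in N_30 reached down to -0.47 (MSMO1), so a change of up to that size lay inside the interval of that member. An interval bound is not a limit of detection, and the smallest change that would be called was not determined.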
